A study of Homo sapiens with 2 samples.

Results

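The replication-dependent histone genes were described in OVCAR5, an ovarian carcinoma cell line that here carried a reporter for sensing of interferon-gamma (IFNy) and was CFP+. Genes were taken when their symbol began with HIST1H, HIST2H or HIST3H and they held at least 100 UMIs (counted RNA molecules) in the kept cells. Of 36601 genes in the deposited matrix 70 carried such a symbol, and 43 of these reached the minimum: 5 linker histone genes (H1), 13 H2A, 12 H2B, 9 H3 and 4 H4 genes. All cells came from 1 pool that was sequenced as a 3' gene expression library and a hashtag library on the Chromium platform. The labels list 18 conditions in that pool: no stimulation or IFNy at 1, 10 or 100 ng/ml for 2, 6, 12 or 24 h, and frozen cells of the 24 h unstimulated and 24 h 100 ng/ml conditions. Every condition was the same line with the same reporter, and the labels do not say whether the reporter line is a single clone.

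Cells carried pairs of 8 hashtags, and 18 pairs were read in 6114 of 7201 kept cells, with 166 to 493 cells per pair. The sources used here do not give which hashtags marked which condition, so pairs are named by their hashtag numbers and conditions were not compared. The data are 1 pooled sample without replicates, so no test was run, no p-value is given, and every interval covers counting error only. Across pairs the median depth ran from 27824.5 to 32945 UMIs per cell, with a median of 10.5 to 12.4% mitochondrial UMIs. Epithelial keratin KRT18 was detected in 99.9% of kept cells and KRT8 in 99.4%, while the ovarian lineage factor PAX8 was detected in 10.5%. Of 13 markers of T cells, myeloid cells, fibroblasts and endothelial cells, CD3E, TYROBP and COL1A2 held 0 UMIs and the pan-leukocyte gene PTPRC held 2. The others were detected in 2.24% of cells (COL1A1) or fewer, except the myeloid marker CD14, with 1121 UMIs in 13.4% of cells. Which cells CD14 came from was not tested.

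Replication-dependent histone genes supply the histones that package newly made DNA. They lie in clusters, have few or no introns and are transcribed chiefly in S phase, when their products are needed. Most of their mRNAs end in a conserved stem-loop bound by the stem-loop binding protein instead of a poly(A) tail, and this end is part of how the mRNAs are made and removed with the cell cycle. Some of these genes also give polyadenylated transcripts in cells that are not replicating. H2A, H2B, H3 and H4 form the nucleosome core, and H1 binds the linker DNA between cores. Libraries of the 3' gene expression kind are primed on poly(A) or A-rich stretches, so the levels below are of molecules that such priming could reach.

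The 43 genes held 198234 UMIs in the kept cells, or 816.5 CPM, UMIs of a gene per 1000000 UMIs of all genes. One gene dominated. HIST1H4C, an H4 gene, held 104061 UMIs and 52.5% of the total, and the 4 H4 genes together held 53.0%. The H1 genes followed with 31.8%, led by HIST1H1C with 19215 UMIs, HIST1H1B with 18579, HIST1H1D with 16493 and HIST1H1E with 7605. H2A genes gave 10.4% of the total, with HIST2H2AC at 6263 UMIs, HIST3H2A at 5599 and HIST1H2AC at 3151. The H2B share was 3.05%, and its leading genes were HIST1H2BJ with 1270, HIST1H2BD with 1157 and HIST1H2BN with 1135 UMIs. H3 genes gave 1.83%, led by HIST1H3B with 1084, HIST1H3H with 676 and HIST1H3C with 497. These shares are of captured UMIs and do not measure the ratio of the histone mRNAs in the cell, since capture at the 3' end can differ between genes. HIST1H4C UMIs were found in 90.3% of kept cells, HIST1H1C in 66.9%, HIST3H2A in 46.0% and HIST1H3B in 12.4%. The line has no cell type known to lack these genes, so no share of cells could be set against a background.

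The other 27 rows of the family fell below the minimum, and 9 of them held 0 UMIs. Just outside were HIST1H4A with 96, HIST1H2BO with 95 and HIST1H4J with 91 UMIs, and just inside were HIST1H3A with 101, HIST3H2BB with 112 and HIST2H2BF with 123. Some of the rows below the minimum are near-identical gene copies, whose reads the counting could have split or dropped. HIST2H2AA3 held 1 UMI and its copy HIST2H2AA4 held 12, HIST2H4A held 46 and HIST2H4B held 15, and HIST2H3A and HIST2H3C both held 0. The levels of such copies are uncertain.

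The sequence around the members gives the background to the patterns that follow. Of the 43 members, 41 were found by Ensembl ID in GENCODE release 29 (GRCh38), 34 on chromosome 6 and 7 on chromosome 1, and 30 of the 41 had single-exon transcripts only. HIST2H3PS2 (198 UMIs), counted among the H3 genes by its symbol, is annotated there as a processed transcript without a stop codon. The conserved stem-loop was searched as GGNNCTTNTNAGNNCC on the sense strand of the annotated transcripts and was present in those of 17 members. In many of the others the annotated transcript stops at or near the stop codon, so the window does not reach where the stem-loop would lie. The stem-loops of 3 H2A genes and 1 H2B gene are shown with their flanks because these genes differ in how they followed the cell cycle (below). Capitals mark the arms of the stem and the lower case between them is the loop. Each lies in an exon after the stop codon, at chr1:228457361-228457390 (minus strand) for HIST3H2A, chr6:26124663-26124692 (plus strand) for HIST1H2AC, chr6:26158581-26158610 (plus strand) for HIST1H2BD and chr6:27133509-27133538 (plus strand) for HIST1H2AG.
HIST3H2A: cataaaGGCTCTtttcAGAGCCacctacta
HIST1H2AC: cccaaaGGCTCTtttcAGAGCCcccctacc
HIST1H2BD: cccaaaGGCTCTtttaAGAGCCacgcatgt
HIST1H2AG: accaacGGCTCTtttcAGGGCCacccacgt
In all 4 genes an annotated transcript continues past the stem-loop, by 390 bases in HIST3H2A and 1761 in HIST1H2AG. Over all transcripts of the gene the most was 1128 bases in HIST1H2AC and 39 in HIST1H2BD. The longest annotated stretch after the stop codon of HIST1H2BD, 384 bases, thus does not run on from this stem-loop. The annotated transcript of HIST1H4C (chr6:26103876-26104310, plus strand, 1 exon) has 51 bases after the stop codon. It ends in an A-rich stretch, shown because this gene held most UMIs, with capitals marking each A, at chr6:26104291-26104310.
HIST1H4C: AAAAAAcAAAAAcAAAAAAA
This window of 20 bases holds 18 A, against a median of 11 for the most A-rich window of each of the 41 members. Over the 68 family rows with an annotated transcript, the A count of the richest window and the UMIs had a Spearman's rho of 0.36, and 1 other row, HIST1H2BG with 46 UMIs, reached the A count of HIST1H4C. Whether this stretch was primed was not tested.

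Promoter sequences from RefSeq (GRCh38.p14, 250 bases before to 50 after the start) were matched for 39 of the 43 members. The letters CCAAT (the CCAAT box), TATANA (the TATA box), ATTTGCAT (the octamer bound by POU2F1) and AAACACA (the H1 box) were searched on both strands, and matches of different motifs may overlap. AAACACA was found in all 5 H1 promoters, in 1 of 12 H2A promoters and in none of the 12 H2B, 7 H3 or 3 H4 promoters, against 5.64% of all 35116 promoters of the same length. ATTTGCAT was found in 9 of 12 H2A, 8 of 12 H2B, 1 of 7 H3, 0 of 5 H1 and 0 of 3 H4 promoters, against 1.77% of all promoters. CCAAT was in 37 of the 39 members' promoters (34.6% of all promoters) and TATANA in 33 (19.0%). Below are HIST1H1B (chr6:27867539-27867838, minus strand) and HIST1H1D (chr6:26234938-26235237, minus strand), the H1 genes with the highest folds between cell ranges (below) among those with at least 2000 UMIs, and HIST3H2A (chr1:228457824-228458123, minus strand) and HIST1H2AC (chr6:26123922-26124221, plus strand), which ran the other way. Capitals mark the searched motifs.
HIST1H1B: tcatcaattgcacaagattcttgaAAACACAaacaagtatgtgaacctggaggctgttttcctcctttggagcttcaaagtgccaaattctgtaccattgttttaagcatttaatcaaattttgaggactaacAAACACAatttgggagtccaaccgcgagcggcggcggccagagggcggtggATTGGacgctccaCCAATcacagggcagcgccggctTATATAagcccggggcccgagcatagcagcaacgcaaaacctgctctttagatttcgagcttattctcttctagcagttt
HIST1H1D: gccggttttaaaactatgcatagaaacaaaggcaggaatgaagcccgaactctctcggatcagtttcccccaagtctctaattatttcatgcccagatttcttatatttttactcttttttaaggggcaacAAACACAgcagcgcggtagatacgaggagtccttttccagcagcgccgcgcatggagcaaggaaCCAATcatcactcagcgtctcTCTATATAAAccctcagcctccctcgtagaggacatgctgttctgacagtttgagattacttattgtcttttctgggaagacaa
HIST3H2A: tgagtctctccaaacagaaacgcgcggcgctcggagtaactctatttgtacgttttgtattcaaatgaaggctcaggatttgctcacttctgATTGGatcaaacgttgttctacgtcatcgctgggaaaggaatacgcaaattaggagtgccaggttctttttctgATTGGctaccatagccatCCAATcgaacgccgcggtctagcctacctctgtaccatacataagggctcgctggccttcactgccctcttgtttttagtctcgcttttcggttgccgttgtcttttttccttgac
HIST1H2AC: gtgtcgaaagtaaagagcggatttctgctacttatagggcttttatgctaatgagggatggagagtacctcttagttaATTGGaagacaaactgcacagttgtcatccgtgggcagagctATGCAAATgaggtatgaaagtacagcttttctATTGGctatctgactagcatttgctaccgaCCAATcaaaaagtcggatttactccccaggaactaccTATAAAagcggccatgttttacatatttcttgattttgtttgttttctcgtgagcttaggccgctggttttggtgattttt
HIST1H1B holds 2 matches to AAACACA, 2 to CCAAT and 1 to TATANA. HIST1H1D holds 1 match to AAACACA, 1 to CCAAT and 3 overlapping ones to TATANA. HIST3H2A holds 3 matches to CCAAT and 0 to TATANA and to ATTTGCAT in this window. HIST1H2AC holds 3 matches to CCAAT, 1 to TATANA and 1 to ATTTGCAT.

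Cells were then placed by 2 lists of cell-cycle genes that hold none of the members: 42 genes of S phase and 54 genes of G2 and mitosis (G2/M). The G2/M list holds 1 histone variant, CENPA. Cells were thinned to 10000 UMIs each (6997 cells, with 204 shallower ones left out). Of these 6997 cells 5956 had a hashtag pair, and the ranges and bins used all 6997. Each list was split at its median, 24 UMIs for the S list and 57 for the G2/M list. This gave 1926 cells with both lists high, 1639 with the S list high and the G2/M list low, 1614 with the G2/M list high and the S list low, and 1818 with both low. These are ranges of a score and not cell types, and 913 cells lay within 10% of the S cut and 596 within 10% of the G2/M cut. Before thinning, the median depth was 36409.5 UMIs in the both-high range, 30909 with the S list alone high, 34397 with the G2/M list alone high and 26548 in the both-low range. Thinning sets the depth equal, and whether cell size or other properties that go with depth took part in the results was not tested.

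The summed histone genes were highest where both lists were high and lowest where both were low. They stood at 1566 CPM in both-high cells, 639 CPM with the S list alone high, 491 CPM with the G2/M list alone high and 278 CPM in both-low cells. The both-high level was 5.63 times the both-low level (95% counting interval 5.46 to 5.80), and the S-high level 2.30 times (2.22 to 2.38). Without HIST1H4C these folds were 4.19 and 1.52. By class the both-high over both-low fold was 9.92 for H1 (9.31 to 10.6), 7.91 for H4 (7.54 to 8.30), 3.21 for H3 (2.67 to 3.88), 1.49 for H2A (1.40 to 1.60) and 1.01 for H2B (0.896 to 1.15). The sums of the H2A and H2B genes held members that ran in opposite directions.

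Of the 43 members, 30 were at least 2-fold higher in both-high than in both-low cells, where 4.04% of the 14398 genes with at least 100 UMIs were. Another 5 members were at least 2-fold lower, where 6% of those genes were. The median fold was 4.25 over the members and 0.97 over those genes. The members higher by this measure were 5 of 5 H1, 11 of 13 H2A, 5 of 12 H2B, 6 of 9 H3 and 3 of 4 H4 genes. The lower ones were the H2A genes HIST3H2A and HIST1H2AC, the H2B genes HIST1H2BD and HIST2H2BE, and the H3 gene HIST1H3E. HIST2H2BE rested on only 14 UMIs in both-high and 32 in both-low cells. HIST1H3E rested on 10 and 22 UMIs, a fold of 0.43 (0.18 to 0.94). With the S list alone high, 19 members were at least 2-fold higher than in both-low cells (3.17% of all genes tested) and 4 were at least 2-fold lower (3.46%). Those 4 were HIST3H2A, HIST1H2AC, HIST1H3E and HIST2H2BE. In 3 members (HIST1H2BB, HIST1H3I and HIST1H4I) the both-low cells held under 3 UMIs, and their folds were taken against 3 counts.

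**Figure D1:**
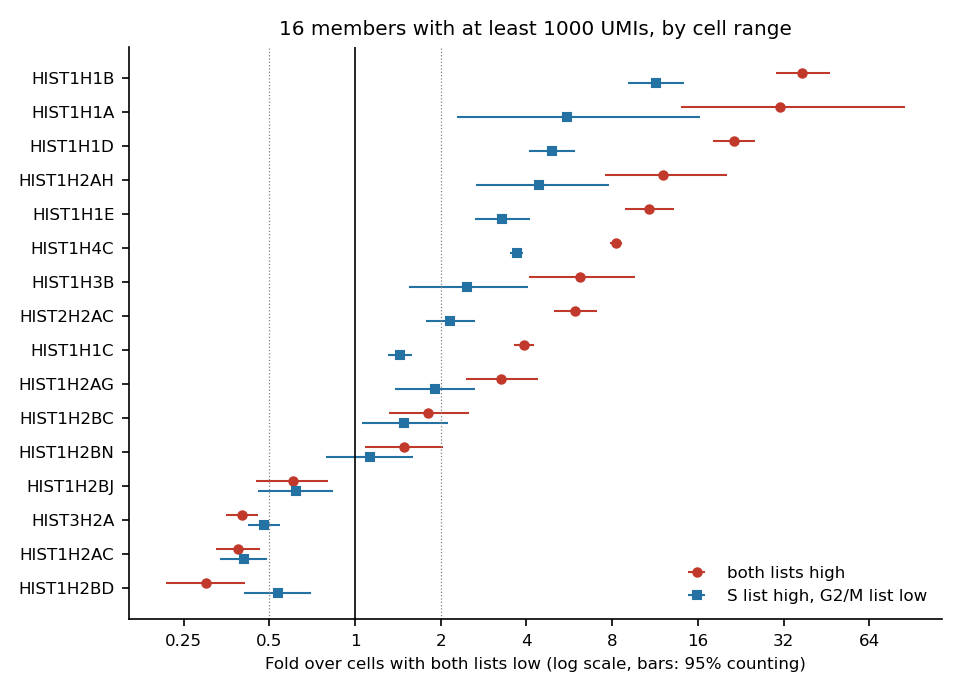
Fold of each of the 16 members with at least 1000 UMIs over cells with both lists low, on a log axis, for cells with both lists high (circles) and with the S list alone high (squares). Bars are 95% counting intervals and dotted lines mark 2-fold. HIST1H1B is highest at 37.2 and HIST1H2BD lowest at 0.300 in the both-high cells.

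Among the linker histones HIST1H1B (H1.5) differed most. It stood at 176 CPM in both-high cells, 53.8 CPM with the S list alone high, 30.4 CPM with the G2/M list alone high and 4.73 CPM in both-low cells, a both-high fold of 37.2 (30.1 to 46.7). HIST1H1D (H1.3) was at 168, 38.6, 29.6 and 7.87 CPM in the same order, a fold of 21.4 (18.1 to 25.5). HIST1H1E (H1.4) stood at 65.7 CPM in both-high and 6.11 CPM in both-low cells, a fold of 10.8 (8.85 to 13.2). HIST1H1C (H1.2), which is known to give polyadenylated transcripts outside S phase, kept the highest floor, with 151 CPM in both-high and 38.6 CPM in both-low cells, a fold of 3.92 (3.61 to 4.27). In both-low cells HIST1H1C was therefore the leading H1 gene, while in both-high cells HIST1H1B and HIST1H1D stood above it. HIST1H1A (H1.1), with 1058 UMIs, had 197 UMIs in both-high and 6 in both-low cells, a fold of 31.0 with a wide interval (14.0 to 85.5).

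HIST1H4C, the core histone gene with most UMIs, stood at 814 CPM in both-high cells, 366 CPM with the S list alone high, 254 CPM with the G2/M list alone high and 99.0 CPM in both-low cells. Its both-high fold was 8.22 (7.83 to 8.64). The other H4 genes were sparse: HIST1H4H, with 660 UMIs, stood at 2.02 CPM in both-high and 3.96 CPM in both-low cells, a fold of 0.51 (0.34 to 0.77). HIST1H4D had a fold of 2.83 (1.35 to 6.49) and HIST1H4I held 20 UMIs in both-high cells and 1 in both-low cells. Among H3 genes HIST1H3B was at 9.14 and 1.49 CPM in both-high and both-low cells, a fold of 6.15 (4.09 to 9.60), and HIST1H3C at 3.58 and 0.33 CPM, a fold of 10.9 (4.74 to 30.6). HIST1H3H did not share this, with 3.69 and 3.41 CPM, a fold of 1.08 (0.76 to 1.55).

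The H2A genes split. HIST2H2AC stood at 50.9 CPM in both-high and 8.58 CPM in both-low cells, a fold of 5.93 (5.00 to 7.07), HIST1H2AH at 12.6 and 1.05 CPM, a fold of 12.0 (7.53 to 20.3), and HIST1H2AG at 11.3 and 3.47 CPM, a fold of 3.27 (2.46 to 4.40). HIST3H2A ran the other way, with 16.9 CPM in both-high, 20.2 CPM in S-high, 21.7 CPM in G2/M-high and 42.1 CPM in both-low cells, a both-high fold of 0.40 (0.35 to 0.46). HIST1H2AC followed it, with 9.19, 9.64, 16.1 and 23.7 CPM in the same order, a fold of 0.39 (0.32 to 0.46). Of the 3 leading H2A genes, 1 was therefore higher and the others lower in cells with both lists high. The leading H2B genes did not include a strongly higher one: HIST1H2BD had a fold of 0.30 (0.22 to 0.41), HIST1H2BJ of 0.60 (0.45 to 0.81), HIST1H2BN of 1.49 (1.09 to 2.04) and HIST1H2BC of 1.81 (1.32 to 2.51).

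Splitting each list into 4 bins of about equal cell numbers, from 1 (lowest) to 4 (highest), showed where along the 2 lists each gene was highest. HIST1H4C stood at 62.8 CPM where both lists were in bin 1. In S bin 4 it was at 169, 542, 1014 and 1039 CPM from G2/M bin 1 to bin 4. In S bins 1, 2 and 3 its highest value lay in G2/M bin 3 (195, 417 and 764 CPM), above G2/M bin 4 (163, 233 and 562 CPM). HIST1H1B had the same shape, from 1.02 CPM at the lowest corner to 276 CPM at the highest, and in S bin 3 stood at 142 CPM in G2/M bin 3 and 97.6 CPM in bin 4. HIST1H1C ran from 22.4 CPM, at S bin 1 and G2/M bin 4, to 260 CPM where both were in bin 4. HIST3H2A was highest, 54.5 CPM, in S bin 1 and G2/M bin 2, and lowest, 13.0 CPM, in S bin 4 and G2/M bin 1. HIST1H2AC ran from 6.50 to 31.4 CPM and also had its highest value in S bin 1.

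**Figure D2:**
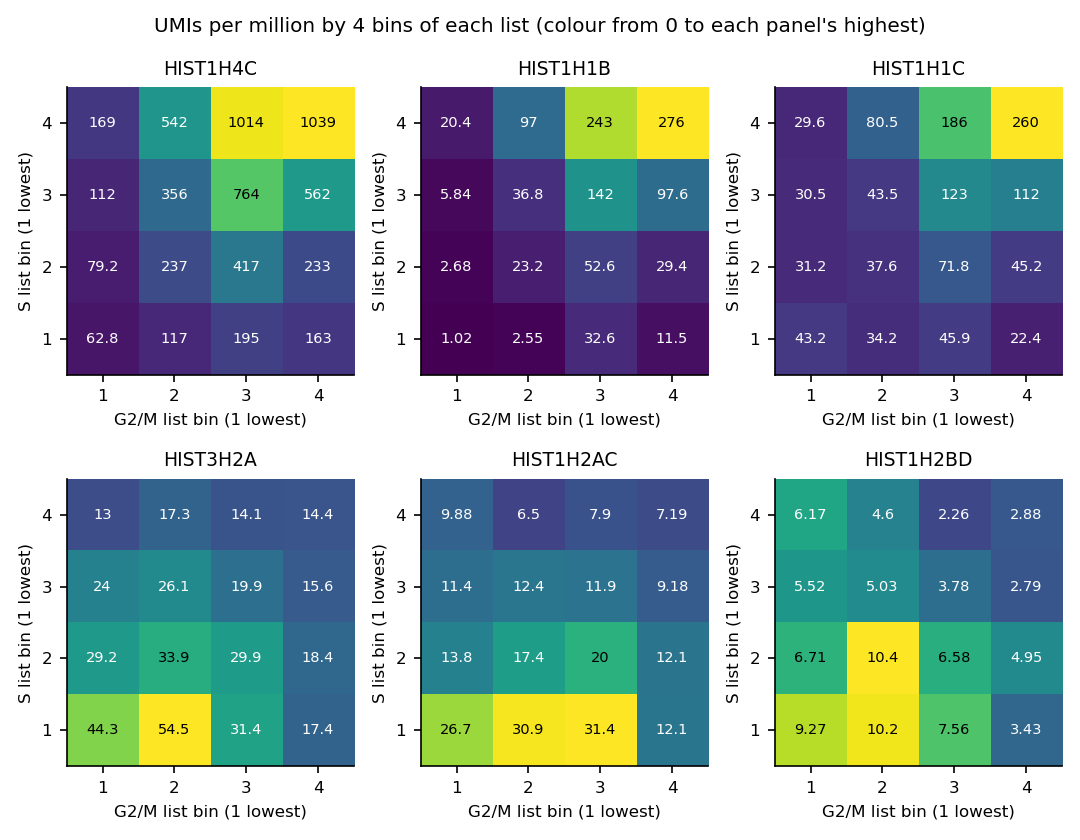
CPM of 6 members in 16 groups of cells, by 4 bins of the G2/M list (horizontal) and of the S list (vertical), with the value printed in each square and the colour running from 0 to each panel's highest value. HIST1H4C, HIST1H1B and HIST1H1C are highest at the upper right, HIST3H2A, HIST1H2AC and HIST1H2BD in the lower rows.

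Across cells within a pair the summed members had a higher correlation with the S list than with the G2/M list. Single members differed in this: 27 of the 43 had the higher median with the S list and 16 with the G2/M list. Among the 16 with at least 1000 UMIs it was 11 against 5, the 5 being HIST3H2A, HIST1H2AC, HIST1H2BD, HIST1H2BJ and HIST1H2BN. Higher can mean only less negative here. The medians with the S and G2/M lists were -0.13 and -0.10 for HIST3H2A and -0.12 and -0.06 for HIST1H2AC. They were -0.08 and -0.07 for HIST1H2BD, -0.07 and -0.01 for HIST1H2BJ, and 0.00 and 0.05 for HIST1H2BN. Spearman's rho of the summed members with the S list had a median of 0.49 over the 18 pairs and ranged from 0.35 to 0.60, and with the G2/M list it had a median of 0.25 (0.06 to 0.36). The 2 lists themselves had a median rho of 0.12. These values describe 5956 thinned cells of 1 library, in which the genes share each cell's depth and capture, and sparse genes give low values. The highest values with the S list were those of HIST1H4C (0.57, from 0.42 to 0.66), HIST1H1B (0.50), HIST1H1D (0.41), HIST1H1E (0.32) and HIST1H1C (0.28). The lowest were HIST3H2A (-0.13, from -0.24 to -0.03) and HIST1H2AC (-0.12, from -0.23 to -0.04), negative in 18 of 18 pairs each, then HIST1H2BD (-0.08, negative in 16 of 18), HIST1H2BJ (-0.07) and HIST1H2BN (0.00). With cells left unthinned, as CPM per cell, HIST1H1B came to 0.60 and HIST3H2A to -0.21.

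**Figure D3:**
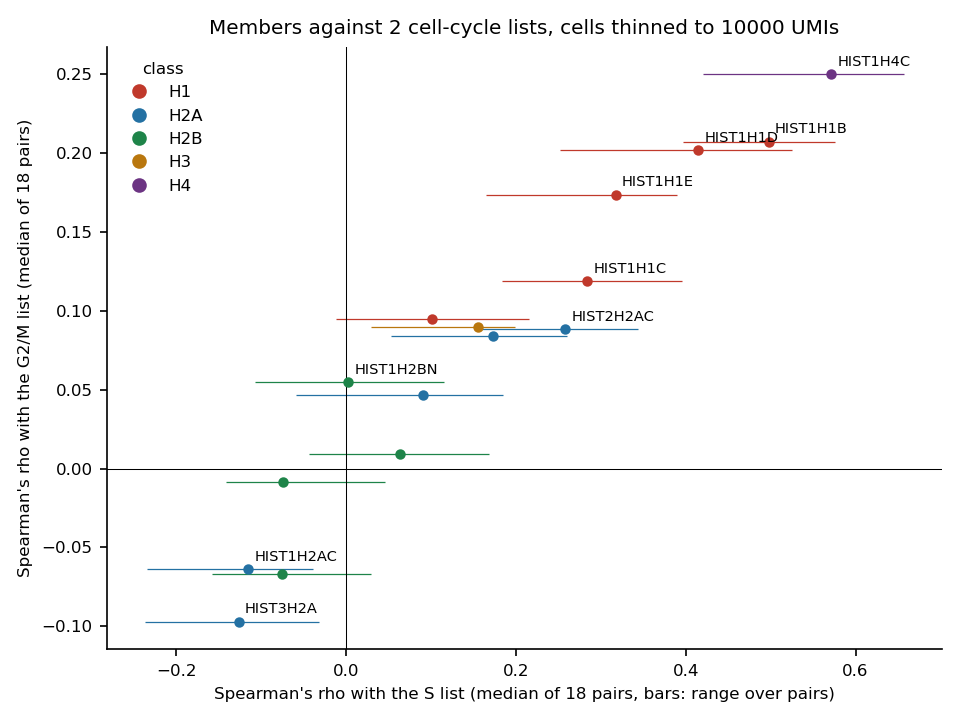
Spearman's rho across cells of 16 members with the S list (horizontal, bars give the range over 18 pairs) and the G2/M list (vertical), as medians over pairs, coloured by class. HIST1H4C lies at 0.57 and 0.25 and HIST3H2A at -0.13 and -0.10.

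Some of the 16 members with at least 1000 UMIs varied together across cells. The highest rho between members was that of HIST1H4C with HIST1H1B, a median of 0.62 over pairs (0.55 to 0.73), followed by HIST1H1B with HIST1H1D (0.60) and HIST1H4C with HIST1H1D (0.57). HIST1H1C had a rho of 0.43 with HIST1H4C and HIST2H2AC one of 0.37. HIST3H2A had -0.12 with HIST1H4C and 0.09 with HIST1H2AC, and HIST1H2AC had 0.11 with HIST1H2BD. These last values are weak and are given as a description only.

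Outside the family, 8201 genes with at least 2000 UMIs were ranked by the median rho of their UMIs with the summed members within pairs. The 10 most alike were RRM2 (0.46, from 0.38 to 0.54), PCLAF (0.41), ATAD2 (0.37), MKI67 (0.36), DUT (0.35), CLSPN (0.35), FAM111A (0.34), CDK1 (0.34), CENPK (0.33) and TYMS (0.33). RRM2 encodes a subunit of ribonucleotide reductase, TYMS is thymidylate synthase and DUT is dUTPase, enzymes of nucleotide supply. RRM2, ATAD2, CLSPN and TYMS were in the S list and MKI67 and CDK1 in the G2/M list, so their place here overlaps with what those lists show. At the other end the lowest was PTTG1, securin, at -0.16 with a range of -0.47 to 0.10 that crossed 0.

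Between hashtag pairs the summed members spanned 2.18-fold (2.12 to 2.25), from 557 CPM in pair 2+8 through a median of 779 CPM to 1217 CPM in pair 3+5. The pairs next below the highest were 5+7 (1034 CPM), 1+5 (981) and 5+6 (979), and those next above the lowest were 2+6 (566) and 3+4 (600). The levels of 1+5 and 5+6 and those of 2+4 (639) and 1+4 (638) did not differ beyond their counting intervals. The highest and lowest of 18 values are chosen as such, so a span above 1 is given by the choice. At least 2-fold spans were found in 42 of the 43 members, where 46.7% of the 14398 genes with at least 100 UMIs spanned 2-fold, a share that sparse genes raise. Among genes with at least 2000 UMIs, 7 of 8 members and 19.4% of all 8218 genes did, and the exception was HIST1H1C at 1.997-fold. The median span was 2.50 for those 8 members and 1.55 for all genes of that depth.

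**Figure D4:**
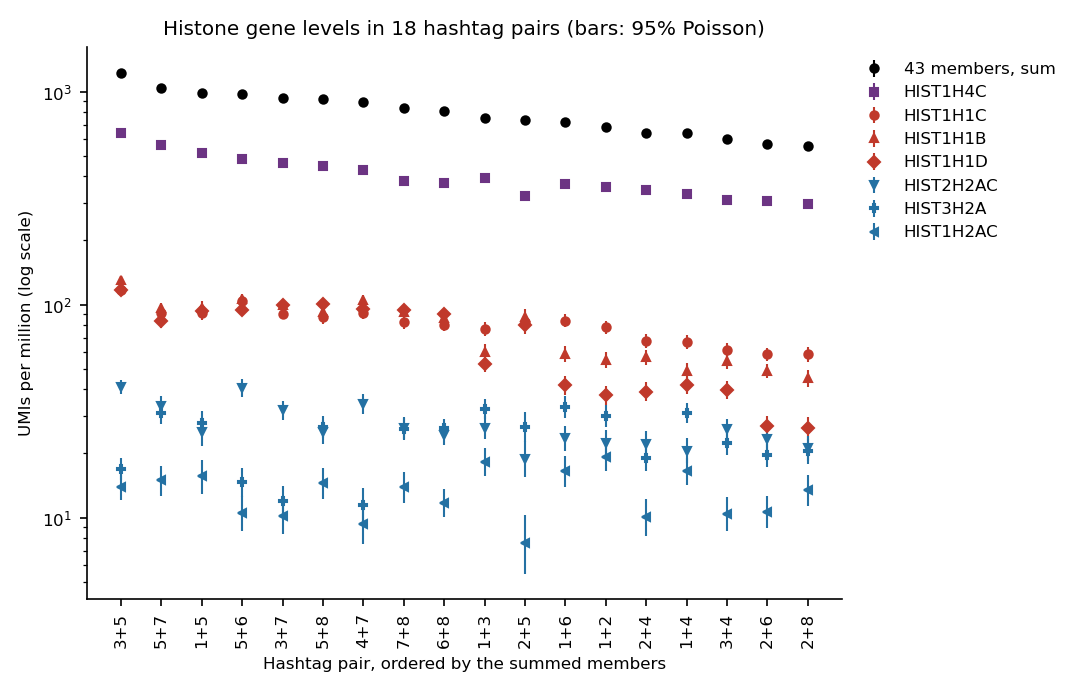
CPM on a log axis of the summed members and 7 of them in 18 hashtag pairs, ordered from the highest sum to the lowest, with 95% Poisson intervals as bars. The sum falls along the axis by construction, from 1217 to 557 CPM. HIST1H1D runs from 118 to 26.3 CPM while HIST3H2A is lowest in pair 4+7.

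The classes shared their highest pairs in part: the H1, H3 and H4 sums were highest in pair 3+5 and the H2A and H2B sums in pair 5+7. HIST1H4C ran from 297 CPM (2+8) through a median of 375 to 637 CPM (3+5), a span of 2.14 (2.06 to 2.23). The H1 sum ran from 153 CPM (2+8) through 294 to 420 CPM (3+5), a span of 2.74 (2.59 to 2.90). HIST1H1D had the widest span of the abundant members, from 26.3 CPM (2+8) through 81.6 to 118 CPM (3+5), 4.48-fold (3.94 to 5.10). Its levels left a gap: 10 pairs lay at 79.7 CPM or above and the other 8 at 52.8 CPM or below. The same 10 pairs lay at 86.7 CPM or above for HIST1H1B, and the other 8 at 60.1 CPM or below. For the H1 sum the bounds were 290 and 218 CPM. In these 10 pairs the both-high range held 29.7% or more of the thinned cells, and in the others 21.2% or less. Whether that share took part in the gap was not tested. HIST1H1B ran from 45.0 (2+8) through 86.8 to 130 CPM (3+5), 2.89-fold (2.62 to 3.21). HIST1H1E ran from 19.8 (2+6) through 34.9 to 48.7 CPM (3+5), and HIST1H1C from 58.4 (2+6) through 82.6 to 117 CPM (3+5). HIST1H1A ran from 1.36 (1+2) through 4.15 to 8.61 CPM (7+8), a span of 6.35 whose interval (3.54 to 12.4) is wide.

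The H2A and H2B sums moved less, by 1.56-fold (69.3 CPM in 2+4 to 108 CPM in 5+7) and 1.59-fold (20.4 CPM in 4+7 to 32.4 CPM in 5+7). HIST2H2AC ran from 18.9 (2+5) through 25.2 to 41.2 CPM (3+5). HIST3H2A ran from 11.5 (4+7) through 26.2 to 33.1 CPM (1+6), a span of 2.88 (2.32 to 3.58), and its 4 lowest pairs were 4+7, 3+7, 5+6 and 3+5, which are among the 7 highest for the summed members. HIST1H2AC ran from 7.60 (2+5) through 13.7 to 19.3 CPM (1+2). HIST1H2BN ran from 2.42 (2+6) through 4.24 to 8.35 CPM (2+5), 3.45-fold (2.12 to 5.67), and HIST1H2BD from 3.29 (2+4) to 6.72 CPM (1+4). Among H3 genes HIST1H3B ran from 2.41 (2+5) to 7.41 CPM (3+5), a span of 3.08 (1.73 to 5.94). HIST1H2AG ran from 4.40 (3+4) to 9.52 CPM (3+5), HIST1H2AH from 4.03 (2+6) to 10.5 CPM (3+7), HIST1H2BJ from 3.15 (2+5) to 6.96 CPM (6+8) and HIST1H2BC from 3.12 (2+8) to 6.79 CPM (5+7). The 27 members with under 1000 UMIs reached at most 6.24 CPM in a pair, and their spans rest on 22 or fewer UMIs in the lowest pair.

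The order of pairs went with the share of cells in the both-high range. That range held 14.6% of the thinned cells of pair 3+4 and 43.8% of those of 3+5, and over the 18 pairs this share and the summed members had a Spearman's rho of 0.95, given as a description of pairs that share a pool, a library and the gene lists. With the level of each list over pairs the sum had a rho of 0.61 for the S list and 0.84 for the G2/M list, the other order from that across cells within a pair. For HIST1H1B the rho with the both-high share was 0.94, for HIST1H1D 0.88, for the H4 sum 0.89 and for HIST2H2AC 0.60. HIST3H2A had a rho of -0.21 with that share, of -0.77 with the level of the S list and of 0.73 with the share of both-low cells, and HIST1H2AC had -0.06, -0.63 and 0.63. Median depth per cell moved with these orders too, with a rho of 0.55 for the sum and -0.72 for HIST3H2A, and its part in the result was not tested. IRF1, an early interferon-responsive transcription factor, had a rho of -0.49 with the summed members and 0.29 with HIST3H2A over pairs.

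Within the both-high cells alone the pairs were closer for the sum. The summed members spanned 1.51-fold there (1.39 to 1.64), from 1288 CPM in pair 2+5 to 1941 CPM in pair 3+5, with 51 to 210 cells per pair. HIST1H1B spanned 1.61-fold (1.28 to 2.06) and HIST1H1C 1.42-fold (1.10 to 1.86) there. HIST1H4C spanned 1.82-fold (1.58 to 2.09), from 602 CPM in pair 2+5 to 1093 CPM in pair 1+6. HIST1H1D still spanned 2.85-fold (2.12 to 3.92), from 81.4 CPM in pair 2+6 to 232 CPM in pair 3+5. HIST2H2AC spanned 2.81-fold there (1.53 to 5.45), above its 2.18-fold span over all cells of a pair. Within the both-low cells the pairs were not closer: the sum spanned 2.46-fold (1.87 to 3.27), from 145 CPM in pair 3+7 to 357 CPM in pair 5+7, and HIST1H4C 4.12-fold (2.30 to 7.71). HIST3H2A spanned 5.55-fold there (2.55 to 14.3), from 14.3 CPM in pair 4+7 to 79.3 CPM in pair 5+7. Its span over all cells of a pair was 2.88-fold. The both-low spans rest on 27 to 178 cells per pair. The lowest pair held 64 UMIs of the sum, 17 of HIST1H4C and 7 of HIST3H2A. In a pair's summed level, fewer cells in a range and fewer molecules per cell cannot be told apart.

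The annotated length of the transcript after the stop codon went with the direction of the members, a split chosen after the values were seen. Of 24 members with under 100 annotated bases after the stop codon, 23 were at least 2-fold higher in both-high than in both-low cells and 0 at least 2-fold lower, with a median fold of 10.4 and a range of 1.63 to 37.2. Of 16 members with at least 100 such bases, 5 were at least 2-fold higher, 5 at least 2-fold lower and 6 between, with a median fold of 1.04 and a range of 0.30 to 7.87. Among members with at least 1000 UMIs, 8 of 8 with the short annotation were higher, and of 7 with the long one 1 was higher and 3 were lower. Those 8 were the 5 H1 genes, HIST1H4C, HIST1H2AH and HIST2H2AC, and those 7 were all H2A or H2B genes. Class and annotated end thus largely went together among them, and the part of each was not tested. All 5 lower members had long annotated ends, from 384 bases in HIST1H2BD to 1908 in HIST1H3E, but HIST1H3E and HIST2H2BE rest on few UMIs. The exceptions on the long side were HIST1H2AG (1827 bases, fold 3.27), HIST2H2BF, HIST1H4I, HIST1H2AE and HIST3H2BB. The 24 members with the short annotation had a median of 0 bases after the stop codon. Many of their annotated transcripts thus stop at the coding sequence and do not show the 3' end. The split therefore also sorts genes by how far the annotation reaches. A long annotated end may have been seen in any tissue, and which ends these cells made was not measured.

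**Figure D5:**
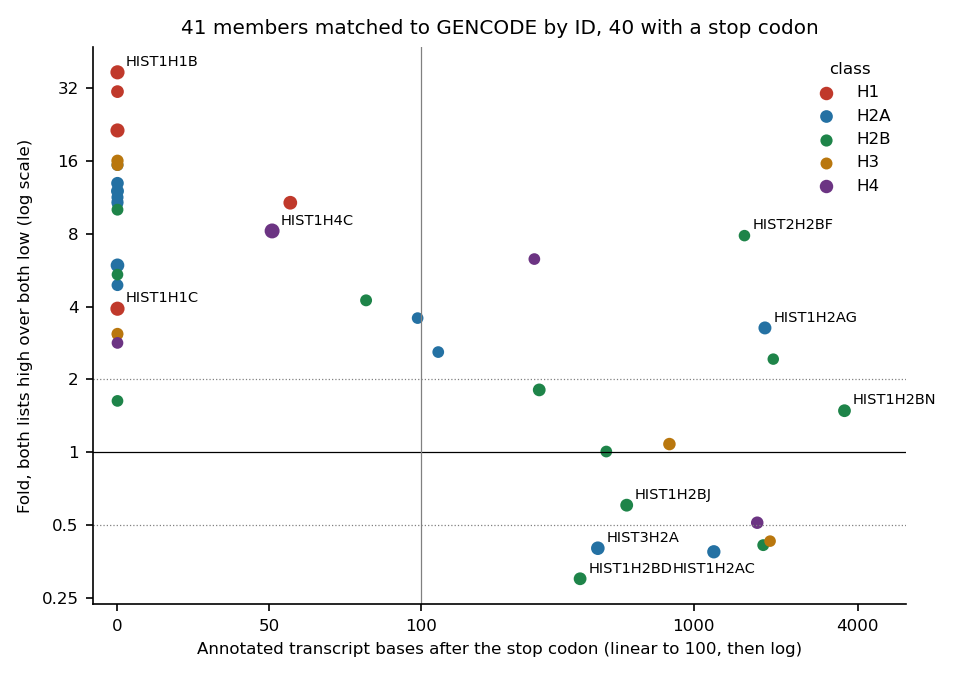
Both-high over both-low fold (log axis) of 40 members against the longest annotated stretch after the stop codon in bases (linear to 100, then log), coloured by class, with larger points for more UMIs. All but 1 of the points left of 100 bases lie above 2-fold, and the 5 points below 0.5 lie to its right.

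Of the 7 members listed as giving polyadenylated transcripts outside S phase, 1 was at least 2-fold higher in both-high cells (HIST1H1C), 3 were at least 2-fold lower (HIST1H2AC, HIST1H2BD and HIST2H2BE), and HIST1H2BC, HIST1H2BJ and HIST1H2BK lay between. Over all 14398 genes tested 4.04% were at least 2-fold higher and 6% at least 2-fold lower. HIST4H4, a replication-dependent H4 gene outside the 3 named clusters, held 369 UMIs and had a fold of 4.15 (2.06 to 9.26).

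The histone variants listed as replication-independent differed less. Of 11 measured, CENPA, the centromeric H3 variant, belongs to the G2/M list that placed the cells, so its fold is not counted. Of the other 10, 1 was at least 2-fold higher in both-high cells (4.04% of all genes tested) and 0 at least 2-fold lower (6%). The higher one was H2AFX (5.90-fold, 5.46 to 6.38). The remaining ones lay between 0.86 for H2AFJ and 1.92 for H1F0, and H3F3A, an H3.3 gene that is made throughout the cycle, was at 1.01 (0.98 to 1.03). Their sum spanned 1.19-fold over pairs, from 4162 to 4963 CPM. The linker variant H1F0 spanned a wider range over pairs, from 19.6 to 66.8 CPM.

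Among 25 genes for transcription and 3' end formation of histone mRNA, CCNE2, CASP8AP2 and SLBP, the stem-loop binding protein, belong to the S list that placed the cells and are not counted. Of the other 22, 2 were at least 2-fold higher in both-high cells (4.04% of all genes tested) and 0 at least 2-fold lower (6%). The 2 higher ones were CDK2 (3.29-fold) and E2F1 (33.2 against 11.1 CPM). NPAT, the coactivator of histone genes, was at 19.3 and 9.68 CPM (1.99-fold, 1.66 to 2.40). YY1 was at 1.18-fold. Of 21 histone chaperones, HJURP and ANP32E are in the G2/M list and CHAF1B and NASP in the S list. Of the other 17, 3 were at least 2-fold higher and 0 at least 2-fold lower, against the same shares of all genes. The 3 higher ones were ASF1B (7.02-fold), CHAF1A (3.01-fold) and HAT1 (2.18-fold). ASF1A, the sister of ASF1B, was at 1.24-fold (1.11 to 1.39) and ATRX at 0.77-fold (0.72 to 0.83).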

How the data were processed

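Values are raw UMI counts per gene and barcode as the authors deposited them in 1 matrix. More than 1 version of Cell Ranger is named: 5.0.1 in the matrix header, and 2.1.1, with GRCh38, in the submitters' processing notes. Which of them made the counts was not resolved, and no source used here says how reads shared between gene copies were counted. Kept were 7201 of 7804 barcodes (median 31206 UMIs), those with 500 or more genes and mitochondrial UMIs of 20% or less. A pair was read from the 2 most abundant hashtags where the second held at least 5 times the third plus 1 UMI, with at least 100 cells per pair. Hashtags cannot show doublets of cells of 1 pair, and no other doublet caller was run. Free RNA was not subtracted.

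Counts were summed over a pair or range and divided by its total to give CPM. Levels carry exact Poisson intervals and ratios exact conditional ones, both at 95%. Spans divide the highest pair by the lowest, whose count was set to 3 where it was smaller. Correlations across cells (Spearman) used thinned cells. Members, gene lists and rules were chosen with earlier results of these data known. Genes named in full were the 3 with most UMIs per class, those with the 5 largest spans and the 5 highest and 5 lowest rho with the S list among members with at least 1000 UMIs, and 10 genes alike. Others were named after their values were seen, among them HIST1H2BC, HIST1H2AG, HIST1H2AH and the genes of the 2-fold counts.

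Sequences came from GENCODE release 29 and RefSeq. Calculations were checked on simulated data. Alternatives covered the cell filter, pair rule, denominator, thinning, member minimum, list split and the leading member. Python 3.11.15, numpy 2.4.6, scipy 1.17.1, pandas 2.3.3 and matplotlib 3.10.9 were used.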

Additional observations from a re-analysis of the deposited data

Results flagged for a closer look

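Signal from the members lay in barcodes outside the comparisons. In the 603 barcodes removed by the filter, which had a median of 5200 UMIs and 84.0% mitochondrial UMIs, the members stood at 509.5 CPM of non-mitochondrial UMIs (475.9 to 544.9). In the 1087 kept cells without a pair, at a median of 51617 UMIs, they stood at 909.7 CPM of non-mitochondrial UMIs (901.2 to 918.3), against 917.8 (913.2 to 922.3) in the 6114 cells with a pair. On the same scale HIST1H4C alone reached 539 CPM in the cells without a pair and 464 CPM in those with one. The unstimulated cells of the pool could not be told from the others, so these values have no control level. The members together had UMIs in 98.5% of kept cells, so a level above a count of 0 was given in advance, and the values are given as a description.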

How the results depend on the processing

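No fold of the summed members, and no rho checked, reversed under the 11 alternative settings. Counts of members and spans of the highest over the lowest pair have no direction to reverse. A rho was checked only where its main value was at least 0.1 in size. The directions of folds of single members were not checked. Of 64 values of the main results under these settings, 54 stayed within their interval, spread over pairs or 1.5-fold range. The S-high over both-low fold of the summed members (2.30) came to 2.40 under a stricter cell filter (1000 genes, 15% mitochondrial), 2.52 without thinning, 2.52 with each list split at its 75th percentile and 1.52 without HIST1H4C. The both-high over both-low fold (5.63) came to 5.82 with members of at least 1000 UMIs, 5.26 with cells thinned to 5000 UMIs, 4.23 with the higher split and 4.19 without HIST1H4C. The rho of the summed members with the S list (0.49) came to 0.37 without HIST1H4C. Members spanning 2-fold were 15 when only those with at least 1000 UMIs were counted, since fewer genes were tested, and 30 of 43 with cells thinned to 10000 UMIs. Members at least 2-fold higher with the S list alone high were 13 with cells thinned to 5000 UMIs and 22 without thinning. The shares of all genes under these settings were not computed, so these counts of members have no background to be read against. Of 198 values of single named members 182 stayed within range, and the span of HIST1H1D rose to 5.41 with thinned cells. For the other values that moved, the cause was not tested. No paired analysis was possible because the labels give no replicates. The both-high fold and the counts over ranges were added after seeing the data. Sparse H3 and H2B members and pair values within the both-low range are limited by few UMIs.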

Other observations

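Among the 41 members with coordinates, 7 couples lay head to head on opposite strands with their 5' ends within 1000 bases of each other (219 to 331 bases). In 4 of them the both-high over both-low folds were on opposite sides of 1 and in 3 on the same side, and in 5 the intervals of the 2 folds did not overlap. HIST2H2AC and HIST2H2BE, 323 bases apart on chromosome 1, had folds of 5.93 and 0.41 (0.20 to 0.80). HIST1H2AG and HIST1H2BJ, 292 bases apart on chromosome 6, had 3.27 and 0.60, and HIST1H2BC and HIST1H2AC, 219 bases apart, had 1.81 and 0.39. HIST1H2AH and HIST1H2BK, 331 bases apart, had 12.0 and 1.63 (0.74 to 3.79), both above 1 with separate intervals. HIST3H2A and HIST3H2BB, 234 bases apart, had 0.40 and 2.43 (0.97 to 6.88, an interval that includes 1). The couples HIST1H2BL with HIST1H2AI and HIST1H2AJ with HIST1H2BM had close folds, 4.25 and 3.59, and 4.91 and 5.43. These are descriptions of 1 pooled library, and the couples were looked for after the folds had been seen.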
